A study of Mus musculus with 9 samples.

Results

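Chickpea medium was compared with control medium in 3T3-L1 cells on days 4, 6 and 8 of adipogenic differentiation, the days after the inducing cocktail had been withdrawn. 3T3-L1 is an established mouse line of preadipocytes, which become lipid-filled fat cells once confluent and given hormonal inducers. The 6 arrays of these days were taken out of 9 by their sample titles, 3 from control medium and 3 from medium with 0.5% chickpea extract. All cells, the controls included, had received methylisobutylxanthine, dexamethasone and insulin with fetal bovine serum for the first days and insulin with serum after that. The chickpea medium differed by the extract alone as far as the labels say, and its composition is not given there. The other arrays were control medium on day 0, before induction, and 1 array of each medium on day 2. Each medium and day had 1 array, and the labels name no separate cultures, so the 3 days stood in for replicates. The p-values rest on the spread of the same-day difference between days, moderated towards a spread shared over all tested genes.

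As background, adipogenesis in this line runs through a cascade of transcription factors. The early factors C/EBP beta and C/EBP delta respond to the inducers and switch on PPAR gamma and C/EBP alpha, which then maintain each other and activate the genes of the mature fat cell. These include genes for lipid droplet proteins, lipases, fatty acid binding proteins, the insulin-responsive glucose transporter and secreted factors such as adiponectin, adipsin and resistin. Preadipocyte factors such as Pref-1, the product of Dlk1, hold the programme back. In bulk RNA, fewer cells of a type and less RNA per cell cannot be told apart.

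The array carried 321 metabolic genes with 1 spot each, and 226 of them entered the test for these 6 arrays. Of the 95 others, 78 were above the detection limit of 10 intensity units on no array, 8 on 1 array and 9 on more, where scaled values were then constant at the floor. From 71.0% to 73.2% of the 321 genes were above the limit on the control arrays and from 62.6% to 65.1% on the chickpea arrays. Median intensity was 129 to 168 units on the control arrays and 55 to 64 units on the chickpea arrays, so the chickpea arrays were the dimmer ones. Levels are given below as log2 intensity after quantile normalization, which gives all arrays the same distribution, with a floor of 3.39. A difference with an array at the floor on 1 side is a bound, written as at least. The labels call the cells adipocytes, and of the 12 adipocyte markers present among the array's genes, 10 exceeded the limit on all 3 control arrays but 5 on all 3 chickpea arrays, while 4 (Retn, Slc2a4, Adrb3 and Lep) were above it on no chickpea array. Summed adipocyte marker intensity ranged from 46385 to 84965 units on control arrays and from 4423 to 8454 units on the dimmer chickpea arrays, and after quantile scaling from 15976 to 26600 against 3146 to 6189. For the 6 preadipocyte markers it ranged from 11577 to 15835 units against 2123 to 3998 units, and after scaling from 3744 to 4960 against 1696 to 2138, nearly all of it from Dlk1, and Wnt10b was above the limit on no array. Of the hepatocyte markers Apoa1, Apoc3 and Cyp7a1, Apoc3 alone passed the limit, on the 3 control arrays at up to 34 units. Of the endothelial genes, Kdr reached 20 units, Tek never passed, and Nos3 passed on 2 control arrays at up to 49 units and on no chickpea array. Of the muscle genes, Fabp3 never passed, and Pfkm, which other tissues also express, was above the limit on all arrays and did not pass the test with quantile scaling. No macrophage marker was on the array, and the part of other cell types in the results was not tested.

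With chickpea, genes of the mature adipocyte were lower on all of days 4, 6 and 8, led by adipsin, adiponectin and resistin, and a set of signalling and metabolic genes was higher, led by glycerol kinase and carnitine palmitoyltransferase 1a. With quantile scaling, 70 of 226 genes passed limma at an adjusted p below 0.05 (31.0%), 44 higher (19.5%) and 26 lower (11.5%), and 104 had an unadjusted p below 0.05. The 26 lower genes also passed in that direction under all 5 scalings tried (11.5%), which were quantile, median, 75th percentile and control gene scaling and the deposited values. Of the 44 higher genes, only Gk and Cpt1a passed under all 5 (0.885% of genes tested), 30 passed under 3, and the difference was below 0 for 18 with control gene scaling and for 10 on the deposited values. Median scaling called 41 genes higher and 33 lower, the 75th percentile 39 and 37, the control genes 2 and 76, and the values as deposited 2 and 82. The median difference of all tested genes was 0.27, 0.23, 0.10, -0.61 and -0.52 in that order of scalings, so each change is best read against it. The 9 control genes, which were not tested, had mean differences from -0.06 for Gapdh to 1.0 for Endog with quantile scaling. From Endog to Rps18 they ran from 0.67 to 1.39 with median scaling and from 0.49 to 1.20 with the 75th percentile. On the deposited values they ran from -0.27 to 0.44, and with control gene scaling, which centres them, from -0.38 to 0.34. Higher calls under the first 3 scalings are thus best read beside these control gene values. In each of the 26 lower genes the 3 chickpea arrays lay below the 3 control arrays, as they did in 16.8% of all tested genes, and in 42 of the 44 higher genes they lay above, as in 37.2% of all tested genes. The count of calls depended on which day was left out. Without the day 6 pair of arrays 12 genes passed, 2 higher (Gk and Cpt1a) and 10 lower, against 63 without day 4 and 96 without day 8. Each of these fits had 1 residual degree of freedom. The median residual SD was 0.285 without day 6, 0.192 without day 4 and 0.199 without day 8. A call lost without day 6 thus need not mean a smaller difference. Pcx, for example, was at -2.25 without day 6 and -2.28 with all days, and Apoe at -1.07 and -1.45. The 10 lower genes kept in all 3 of these fits were Cfd, Adipoq, Retn, Gpd1, Hp, C3, Acsl1, Plin1, Lipe and Fabp4.

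**Figure D1:**
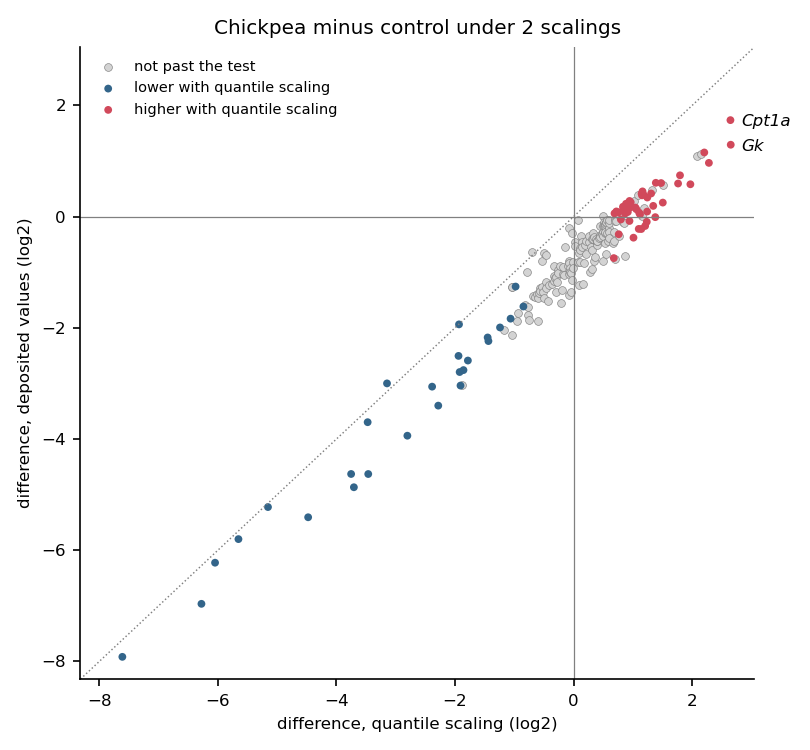
Mean chickpea minus control difference of each gene on days 4 to 8 with quantile scaling (x axis, log2) and on the deposited values (y axis, log2). Each point is 1 gene, coloured by its limma call with quantile scaling, and the dotted line marks equal values. The 26 lower genes lie below 0 on both axes, while the higher genes shift towards 0 on the deposited values, with Cpt1a at 1.74 and Gk at 1.29.

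The largest decreases were in genes of proteins that the mature fat cell secretes. Cfd encodes adipsin, a serine protease of the alternative complement pathway, and Adipoq encodes adiponectin, a hormone made almost solely by adipocytes. Their sequences just upstream of the transcription start are shown because both genes were at the floor on the chickpea arrays of day 4 and gained signal in control medium from the same starting point. Those of Plin1, a gene of the lipid droplet, and Cpt1a, which changed the opposite way, are set beside them. Each line gives the 250 bases before the start from RefSeq on GRCm38.p6, for Cfd chr10:79890603-79890852 (plus strand), for Adipoq chr16:23146286-23146535 (plus strand), for Plin1 chr7:79732777-79733026 (minus strand) and for Cpt1a chr19:3323051-3323300 (plus strand).
Cfd: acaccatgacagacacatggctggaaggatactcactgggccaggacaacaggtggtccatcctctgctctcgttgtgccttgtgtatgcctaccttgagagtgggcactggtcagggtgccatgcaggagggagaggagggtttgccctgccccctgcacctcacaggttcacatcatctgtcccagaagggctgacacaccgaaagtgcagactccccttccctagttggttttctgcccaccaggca
Adipoq: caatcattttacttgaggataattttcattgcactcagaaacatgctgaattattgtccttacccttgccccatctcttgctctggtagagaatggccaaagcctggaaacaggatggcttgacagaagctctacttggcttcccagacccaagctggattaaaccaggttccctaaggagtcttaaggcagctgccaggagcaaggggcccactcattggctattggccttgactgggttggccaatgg
Plin1: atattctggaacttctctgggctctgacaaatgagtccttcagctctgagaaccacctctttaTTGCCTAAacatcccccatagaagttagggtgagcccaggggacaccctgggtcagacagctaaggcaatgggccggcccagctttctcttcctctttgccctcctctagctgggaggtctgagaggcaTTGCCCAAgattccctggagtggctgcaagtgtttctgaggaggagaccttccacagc
Cpt1a: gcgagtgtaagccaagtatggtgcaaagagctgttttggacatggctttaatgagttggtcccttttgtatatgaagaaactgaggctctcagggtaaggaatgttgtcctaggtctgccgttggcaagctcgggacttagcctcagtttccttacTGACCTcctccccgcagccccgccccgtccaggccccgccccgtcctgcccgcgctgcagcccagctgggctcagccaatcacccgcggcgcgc
Capitals mark matches to TTGCNNAA, a core that C/EBP factors can bind, or to AGGTCA, the half-site of nuclear receptors such as PPAR gamma, searched on both strands. Neither motif contains the other. Plin1 held 2 matches to TTGCNNAA and Cpt1a 1 match to AGGTCA on the reverse strand, read here as TGACCT, while neither motif's letters were in the windows of Cfd and Adipoq. TTGCNNAA was in 10.8% of all genes' windows (9.56% of all promoters in the table), in 26 of the 167 tested genes with an entry (15.6%), in 4 of the 20 lower genes with one (C3, Dpt, Plin1 and Pparg) and in 5 of the 32 higher genes with one (15.6%). AGGTCA was in 15.8% of all genes' windows, 25 of the 167 tested genes (15.0%), 4 of the 20 lower genes and 6 of the 32 higher genes (18.8%).

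Cfd read 10.26, 11.63 and 11.42 in control medium on days 4, 6 and 8 and 3.39, 3.39 and 3.70 in chickpea medium, against 3.39 on day 0. It was thus at or next to the floor with chickpea throughout and was at least 196-fold lower on average (log2 -7.61 ± 0.31 (SE), limma adjusted p = 0.000121). Adipoq was at 10.18, 10.79 and 10.67 in control medium and at 3.39, 3.73 and 5.69 in chickpea medium. The chickpea value was above the limit on 2 of 3 arrays and highest on day 8, and the difference was at least 77.6-fold (-6.28 ± 0.45, adjusted p = 0.000873). Retn, the gene of resistin, stood at 9.04, 9.71 and 9.56 in control medium and at the floor on all 3 chickpea arrays, at least 66.2-fold lower (-6.05 ± 0.22, adjusted p = 0.000121). Hp, haptoglobin, an acute phase protein that adipocytes also secrete, was at 8.37, 8.81 and 8.45 in control medium and at the floor in chickpea medium (at least 35.6-fold lower, adjusted p = 0.000121). For genes like these, at the floor on every chickpea array, the gene's own spread between days comes from the control arrays alone. Their SE and p also draw on a spread shared over all tested genes. C3, complement component 3, the central component of the complement system, remained measurable. It was at 11.63, 11.85 and 10.79 in control medium and 6.76, 6.99 and 7.09 in chickpea medium, 22.3-fold lower (-4.48 ± 0.30, adjusted p = 0.000837), and the chickpea values also lay below the 9.08 of day 0. Of the 14 tested members of the list of secreted adipocyte factors, 6 fell and 2 rose, beside 11.5% lower and 19.5% higher over all tested genes. The median was -0.90 beside 0.27 for all tested genes. The 2 that rose, Mif and Angptl4, passed under 3 of the 5 scalings, and without day 6 the list had 5 lower and 0 higher. Lep (leptin) and Il6 were at the floor and were not tested.

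**Figure D2:**
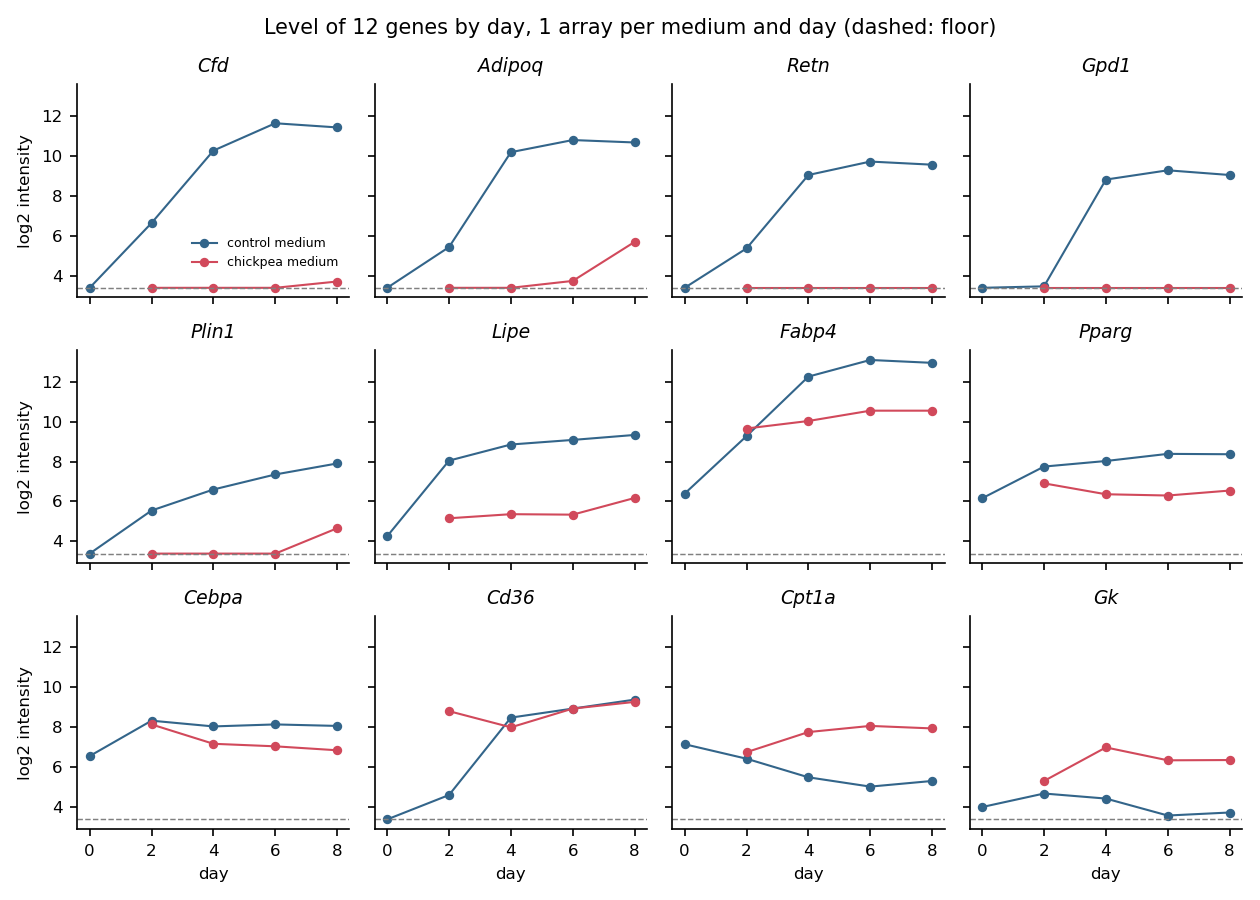
Log2 intensity of 12 genes (y axis) by day (x axis) in control medium (blue) and chickpea medium (red), 1 array per point, with the floor of 3.39 dashed. Cfd, Adipoq, Retn, Gpd1 and Plin1 climb in control medium and stay at or near the floor in chickpea medium until day 6, Cd36 meets the control values from day 4 on, and Cpt1a and Gk lie above control on days 4 to 8.

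The lipid storage and release machinery was lower as well, and within it the difference varied from gene to gene. Gpd1, which makes the glycerol phosphate backbone of triglycerides, was at 8.81, 9.27 and 9.04 in control medium and at the floor on all chickpea arrays, at least 50.3-fold lower (-5.65 ± 0.20, adjusted p = 0.000121). Plin1, the perilipin that coats lipid droplets and gates lipolysis, was at 6.60, 7.35 and 7.90 in control medium and at 3.39, 3.39 and 4.66 with chickpea. Above the floor on the day 8 chickpea array only, it was at least 11.1-fold lower (-3.47 ± 0.24, adjusted p = 0.000837). Lipe, hormone-sensitive lipase, was at 8.85, 9.08 and 9.33 against 5.36, 5.34 and 6.17, a decrease on every day (-3.46 ± 0.21, adjusted p = 0.000684). The chickpea values of Lipe were nevertheless at least 2-fold above the 4.26 of day 0. Pnpla2, adipose triglyceride lipase, which acts before Lipe, was 3.75-fold lower (-1.91 ± 0.22, adjusted p = 0.00475), and Lgals12, a lectin of the lipid droplet, was at least 3.82-fold lower (-1.93 ± 0.45, adjusted p = 0.03). In the lipolysis and lipid droplet list 4 of 5 members fell, beside 11.5% lower over all tested genes. The median was -1.93 beside 0.27. The remaining member, the adrenergic receptor gene Adrb3, was above the floor on the control array of day 8 alone. Without day 6, 2 of 4 tested members passed, both lower.

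Genes that take up and bind fatty acids split into lower members and members that did not pass. Acsl1, which activates long-chain fatty acids with coenzyme A, was at 10.03, 10.36 and 9.65 in control medium and 5.95, 6.27 and 6.71 in chickpea medium, 13.0-fold lower (-3.71 ± 0.30, adjusted p = 0.00126). Fabp4, the adipocyte fatty acid binding protein, was at 12.25, 13.09 and 12.94 against 10.03, 10.55 and 10.55, 5.23-fold lower (-2.39 ± 0.19, adjusted p = 0.00126), yet the chickpea arrays were far above the 6.39 of day 0. Lpl, lipoprotein lipase, which frees fatty acids from circulating triglyceride, was at 12.67, 13.28 and 13.28 against 10.55, 11.02 and 11.85 (3.84-fold lower, adjusted p = 0.00525). Cd36, the fatty acid translocase, did not follow this order. Its control values were 8.49, 8.94 and 9.39 and its chickpea values 8.00, 8.94 and 9.27, overlapping groups with a difference of -0.20 ± 0.20 (adjusted p = 0.456), although it was lower at an adjusted p below 0.05 under 3 of the 5 scalings. Day 0 was at the floor for Cd36, so both media held it well above the undifferentiated level. In the list of fatty acid uptake, binding and activation 3 of 10 tested members fell and 0 rose with quantile scaling, with a median of -0.46, beside 11.5% lower over all tested genes. The number that fell was 4 with median scaling, 5 with the 75th percentile, 7 with control gene scaling or for the values as deposited, and it was 2 without day 6.

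Among genes of fatty acid and triglyceride synthesis, 2 of 9 fell and 1 (Gk) rose with quantile scaling, beside 11.5% lower and 19.5% higher over all tested genes. The median was 0.11 beside 0.27, and without day 6 Gpd1 and Gk passed. With control gene scaling or on the deposited values 4 fell and Gk rose. Those that fell were Gpd1 and Pcx, pyruvate carboxylase, which feeds citrate for lipogenesis and was at 9.46, 9.56 and 9.90 in control medium and 7.09, 7.20 and 7.78 in chickpea medium (4.86-fold lower, adjusted p = 0.00126). Fasn, fatty acid synthase, had a difference of -0.32 ± 0.25 (adjusted p = 0.355) and Acaca, acetyl-CoA carboxylase, one of 0.11 ± 0.20 (adjusted p = 0.675), which turned to -0.71 with control gene scaling and -0.60 for the values as deposited. Srebf1, a transcription factor of lipogenesis, was at -0.62 ± 0.20 (adjusted p = 0.0685) and passed downward under 2 of the 5 scalings. Slc2a4, the insulin-responsive glucose transporter GLUT4, was at 5.55, 7.10 and 6.96 in control medium and at the floor with chickpea, at least 8.86-fold lower (-3.15 ± 0.36, adjusted p = 0.00448). It was the only lower member of the 10 tested in glucose transport and glycolysis with quantile, median and 75th percentile scaling. Pkm, muscle-type pyruvate kinase, was the one that rose in that list with quantile scaling, against 3 members with median scaling and 2 with the 75th percentile. It was not past the test with control gene scaling or on the deposited values. Without day 6 neither Slc2a4 nor Pkm passed. Over all tested genes 11.5% were lower and 19.5% higher with quantile scaling.

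Across the whole adipocyte marker list, 11 of 16 tested members fell and 0 rose, with a median of -2.16, against 11.5% lower and a median of 0.27 over all tested genes. The 11 also fell under each of the 5 scalings, with medians from -3.15 to -2.12. The number lower was 12 without day 4, 7 without day 6 and 12 without day 8, and 1 member was higher without day 4. Of the 5 that did not pass, 4 were below 0, and these were Adrb3, Fabp5, Scara3 and Cd36. The other, Rab3il1, was at 0.49.

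**Figure D3:**
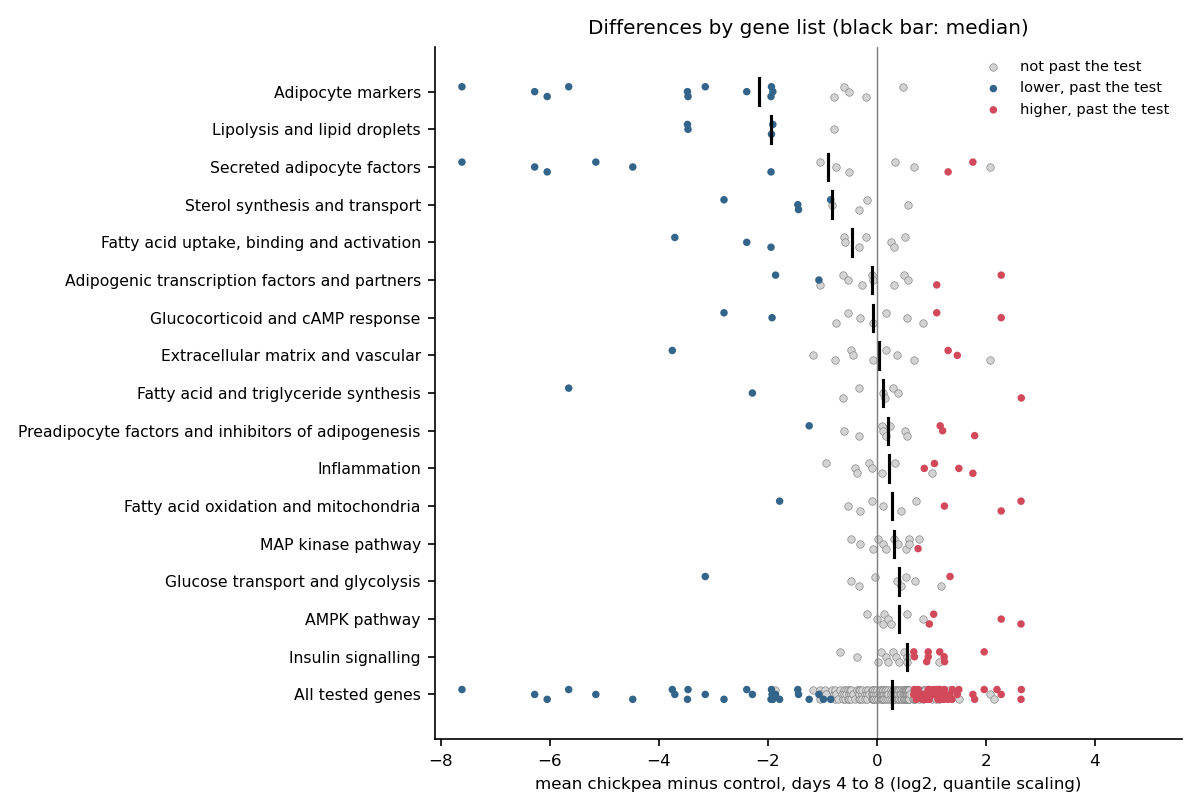
Mean chickpea minus control difference on days 4 to 8 (x axis, log2, quantile scaling) of each tested gene, by gene list (rows) and for all tested genes (bottom row). Colours show limma calls and black bars the medians, which among the lists drawn run from -2.16 for adipocyte markers to 0.55 for insulin signalling. Lists share members.

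The central transcription factors Pparg and Cebpa fell as well. Pparg, the nuclear receptor that drives adipogenesis, was at 8.03, 8.38 and 8.37 in control medium and 6.36, 6.30 and 6.55 in chickpea medium, with 6.16 on day 0. Chickpea arrays thus stayed close to day 0, 3.62-fold below control (-1.86 ± 0.20, adjusted p = 0.00318). Cebpa, its partner, was at 8.05, 8.15 and 8.07 against 7.18, 7.05 and 6.85, 2.09-fold lower (-1.06 ± 0.19, adjusted p = 0.017), with 6.56 on day 0. Cebpb, an early factor of the cascade, was at 9.56, 9.21 and 9.27 in control medium and 10.79, 10.36 and 10.18 in chickpea medium (1.10 ± 0.19, adjusted p = 0.0153), but this difference passed with quantile scaling only and was -0.33 with control gene scaling and -0.22 for the values as deposited. Cebpd, its companion, did not leave the floor on any chickpea array or on the control array of day 8, so its mean of -0.54 was not an exact difference and did not pass. Rxra, the dimer partner of PPAR gamma, was at -0.26 ± 0.40 (adjusted p = 0.618). Of the 13 members of the transcription factor list, 2 fell and 2 rose with quantile scaling, shares near the 11.5% lower and 19.5% higher of all tested genes. With median or 75th percentile scaling 3 fell and 1 rose, and with control gene scaling or on the deposited values 7 fell and 0 rose. Without day 6, 0 passed.

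Preadipocyte factors went both ways. Dlk1 was at 11.85, 12.25 and 11.97 in control medium and 10.67, 10.67 and 11.02 in chickpea medium, after 13.28 on day 0. It had therefore fallen from day 0 in both media and lay 2.36-fold lower with chickpea (-1.24 ± 0.21, adjusted p = 0.0153), a direction kept under all 5 scalings. Gata2, a factor that restrains adipogenesis, and Sfrp2, a secreted Wnt modulator, were at or near the floor from day 4 in both media. Each was nevertheless above the detection limit on 3 control and 2 chickpea arrays. Their differences were 0.12 and -0.33, and neither passed with quantile scaling. Sfrp2 did pass downward under the 4 other scalings, at -1.57 with control gene scaling (adjusted p = 0.0128) and from -1.07 to -0.88 with the rest. Ctnnb1, beta-catenin, the effector of Wnt signalling, was at 8.68, 8.26 and 8.32 in control medium and 9.71, 10.26 and 10.67 in chickpea medium (1.80 ± 0.31, adjusted p = 0.0153). It passed under 3 scalings and stayed above 0, at 0.64, with control gene scaling. Of the 12 tested members of this list 3 rose and 1 fell with quantile scaling, shares near the 19.5% higher and 11.5% lower of all tested genes. With control gene scaling or on the deposited values 0 rose and 5 fell, and 0 passed without day 6.

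Matrix, sterol and steroid genes included further lower members. Dpt, dermatopontin, a matrix protein of fibroblasts, was at 8.94, 8.49 and 8.23 against 4.14, 4.52 and 5.74, 13.5-fold lower (-3.75 ± 0.46, adjusted p = 0.00525), and its chickpea values lay far below the 9.27 of day 0. Apod, apolipoprotein D, a lipocalin, was at 9.27, 8.85 and 8.43 against 5.31, 6.07 and 6.77, 6.98-fold lower (-2.80 ± 0.46, adjusted p = 0.0136), having been at 11.42 on day 0. For both genes the gap narrowed from day 4 to day 8, with same-day differences of -4.80 and -2.49 for Dpt and -3.96 and -1.66 for Apod on those days. In sterol synthesis and transport 4 of 8 tested members fell and 0 rose, beside 11.5% lower and 19.5% higher over all tested genes. The median was -0.83 beside 0.27, and the members that fell besides Apod lay between -1.45 and -0.85. Hsd11b1, which regenerates active glucocorticoid, was at 6.85, 7.78 and 8.38 against 5.02, 5.73 and 6.50, 3.79-fold lower (-1.92 ± 0.18, adjusted p = 0.00231). It rose with day in both media. In the extracellular matrix and vascular list 1 of 12 fell and 2 rose, Vegfb and Angptl4, and 2 of 11 glucocorticoid and cAMP response genes fell and 2 rose, shares near the 11.5% lower and 19.5% higher of all tested genes. With control gene scaling 0 rose in these lists, and 4 matrix, 3 glucocorticoid and cAMP and 6 sterol genes fell. On the deposited values 0 rose, and 5, 5 and 7 fell in that order. None of the calls in the lists of this paragraph held without day 6.

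**Figure D4:**
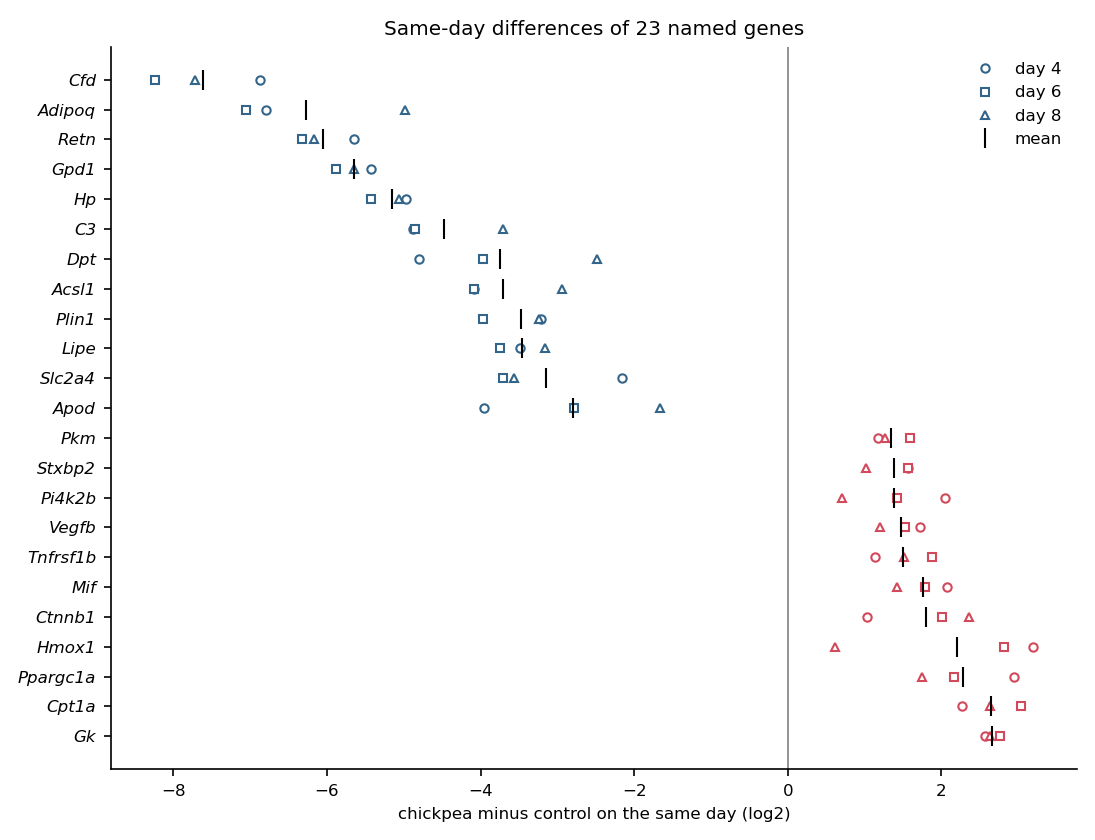
Chickpea minus control difference on the same day (x axis, log2) for 23 named genes past the limma test with quantile scaling, with day 4 as circles, day 6 as squares, day 8 as triangles and the mean as a black bar. The 3 days share a sign for each gene. The day 8 symbol lies nearest 0 for several genes, among them Adipoq, C3, Dpt, Acsl1, Lipe, Apod, Hmox1 and Mif. It does not for others, such as Cfd, Retn and Gk.

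Gk and Cpt1a were the higher genes whose direction and call held under every scaling and without any 1 day. Gk, glycerol kinase, which returns glycerol to triglyceride synthesis and is usually scarce in white fat, was at 4.43, 3.58 and 3.73 in control medium and 6.99, 6.35 and 6.36 in chickpea medium, 6.28-fold higher (2.65 ± 0.18, adjusted p = 0.000837). With control gene scaling the difference was 1.19. Cpt1a, the carnitine palmitoyltransferase that admits long-chain fatty acids to mitochondria for oxidation and whose upstream sequence is shown above, was at 5.50, 5.03 and 5.31 against 7.76, 8.07 and 7.95, 6.26-fold higher (2.65 ± 0.23, adjusted p = 0.0015). Its day 0 level was 7.15, so control arrays had fallen below day 0 while chickpea arrays lay at or above it. With control gene scaling the difference was 1.63. Other genes of oxidation went both ways. Ppargc1a, a coactivator of mitochondrial genes, was at 3.39, 3.64 and 4.71 against 6.33, 5.80 and 6.46 (at least 4.87-fold higher, adjusted p = 0.00525, past the test under 3 scalings). Pdk4, a kinase that inhibits pyruvate dehydrogenase, was higher by at least 1.24 ± 0.28 with quantile scaling (limma adjusted p = 0.0268). Its groups overlapped, and its value was -0.09 with control gene scaling. Acadm, the medium-chain acyl-CoA dehydrogenase, was at 8.61, 8.53 and 7.80 against 6.20, 6.39 and 6.99, 3.44-fold lower (adjusted p = 0.0232). In the list of fatty acid oxidation and mitochondria 3 of 10 tested members rose and 1 fell with quantile scaling, beside 19.5% higher and 11.5% lower over all tested genes. With control gene scaling or on the deposited values 1 rose and 4 fell, and without day 6 only Cpt1a passed.

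The remaining increases were smaller and most depended on the scaling. Hmox1, heme oxygenase, an enzyme induced by oxidative stress, was at 8.23, 8.61 and 10.18 in control medium and 11.42, 11.42 and 10.79 in chickpea medium, a gap of 3.19 on day 4 and 0.61 on day 8. Its mean of 2.21 ± 0.54 (adjusted p = 0.0366) passed with quantile scaling only, and its lowest value over the scalings was 1.05. Mif, a cytokine, was at 9.90, 10.18 and 10.55 against 11.97 on all 3 chickpea arrays (1.76 ± 0.22, adjusted p = 0.00525), with 0.49 under control gene scaling. Vegfb, a growth factor of the VEGF family, was 2.78-fold higher (adjusted p = 0.00785) and Tnfrsf1b, the type 2 TNF receptor, 2.84-fold higher (adjusted p = 0.0105). Pi4k2b, a phosphatidylinositol kinase, was 2.62-fold higher, and Stxbp2, a syntaxin binding protein, at least 2.60-fold higher with the control arrays at the floor, although its value was -0.12 with control gene scaling and -0.0090 for the values as deposited. Pkm was 2.54-fold higher (adjusted p = 0.00969), with 0.09 under control gene scaling.

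In insulin signalling, the list with the most tested members, 9 of 22 rose and 0 fell with quantile scaling, beside 19.5% higher over all tested genes, with a median of 0.55 beside 0.27. Cap1 is under its current symbol a regulator of actin, but the name has also stood for another gene, and which of them the probe measures was not settled. It was higher by 1.24 ± 0.19 (adjusted p = 0.0105) and Insr, the insulin receptor, at 4.01, 4.13 and 4.52 against 5.74, 5.46 and 5.16, by 1.23 ± 0.27 (adjusted p = 0.0268). Irs1, a substrate of the receptor, was at 0.35 ± 0.25 (adjusted p = 0.304). Under control gene scaling and for the deposited values 0 of the 22 rose and 4 fell, the medians were -0.39 and -0.11, and Insr was at -0.20 and -0.09. The number that rose was 4 without day 4, 0 without day 6 and 7 without day 8. The AMPK pathway had 4 of 12 higher (Cpt1a, Ppargc1a, the adiponectin receptor Adipor1 at 1.04 ± 0.18, and Camkk2 at 0.96 ± 0.21) and 0 lower with quantile scaling, beside 19.5% higher over all tested genes. Of these Cpt1a alone passed with control gene scaling, on the deposited values or without day 6, while 3 other members fell with control gene scaling and 2 for the values as deposited. In the inflammation list 4 of 12 tested members rose, led by Mif and Tnfrsf1b, and 0 fell with quantile scaling, beside 19.5% higher over all tested genes. With control gene scaling 0 rose and 6 fell, and for the values as deposited 0 rose and 5 fell. The MAP kinase list had 1 of 13 higher with quantile scaling, beside the same 19.5%. It had 2 lower with control gene scaling and 3 lower for the values as deposited, and neither it nor inflammation had a call without day 6. Trib3, a stress-induced inhibitor of Akt, had a mean of 0.21 ± 0.75 (adjusted p = 0.825) over days that went opposite ways, with control values of 6.73, 8.33 and 8.94 and chickpea values of 8.85, 8.68 and 7.10. Ccl2, a chemokine, was at 0.34 ± 0.22 (adjusted p = 0.273).

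Against the single day 0 array, for which there is no test, most lower genes lay above day 0 in control medium. The shares over all tested genes were not computed. Genes called lower were picked for control values above the chickpea values, so the counts below only describe the picked genes. On all 3 control arrays 18 of the 26 lower genes were at least 2-fold above day 0, and 2 (Apod and Dlk1) were at least 2-fold below it. On all 3 chickpea arrays 5 were above day 0 by that measure (Lipe, Fabp4, Pcx, Hsd11b1 and Pnpla2), 4 were below (C3, Dpt, Apod and Dlk1) and 17 were neither. Among these 17, Retn, Gpd1, Hp, Slc2a4, Lgals12 and Agtr2 were at the floor on day 0 and on every chickpea array, so no difference between them could show. Of the 16 tested adipocyte markers 11 were above day 0 in control medium, while 4 were in chickpea medium (Fabp4, Cd36, Lipe and Pnpla2). Of the 44 higher genes, 41 were neither above nor below day 0 with chickpea, and 3 were above (Mif, Hmox1 and Gk).

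Day by day, 52 of 226 genes exceeded control by 2-fold or more on day 4, 45 on day 6 and 33 on day 8. Those that fell short of control by that factor numbered 39, 33 and 31 on the same days. These counts describe 1 pair of arrays each.

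The differences of days 4 to 8 were also set against that of day 2, the end of the inducer treatment, in a limma fit of 8 arrays. For 6 of 230 genes (2.61%) the mean of the later days lay below the day 2 difference at an adjusted p below 0.05, and for 0 it lay above, with 58 at an unadjusted p below 0.05. Cd36 changed from 4.20 higher with chickpea on day 2, at 4.61 in control and 8.81 in chickpea medium, to -0.20 (a shift of -4.40 ± 0.32, adjusted p = 0.0335). With chickpea, Cd36 was thus near its later level on day 2 already. Hsd11b1 went from 1.29 to -1.92 (shift -3.21 ± 0.24, adjusted p = 0.0335) and Fabp4 from 0.38 to -2.39 (shift -2.77 ± 0.26, adjusted p = 0.038). Those 3 genes were above the floor on all 8 arrays. Gpd1 (shift -5.58), Retn (-4.07) and Hp (-3.15) were at the floor on every chickpea array, so their shifts follow the rise in control medium after day 2. The spread of the day 2 pair is assumed to equal that of the later pairs, and 0 genes passed when any of days 4, 6 or 8 was left out (21 to 68 at an unadjusted p below 0.05, limma).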

How the data were processed

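RNA of 9 samples was hybridised to 1 array each with 1 dye. The file headers name GenePix Pro 6.1.0.4 as the scanner software. The deposited values are linear-scale intensity. Their making was not given in the sources used here. From the values, each entry equalled the authors' background-subtracted intensity plus 2 or 3 units, rescaled in each of 2 sets to a mean of 10000 over its 4 Gapdh spots. All 354 rows were named through that match (relative tolerance 1e-06), with 318 names current and 13 synonyms. The samples' scanner wells were identified by their values only, and intensities in units rest on this. Here the deposited intensities were put on the log2 scale, averaged over the spots of a probe, reduced to the brightest probe of each gene and quantile normalized over the 9 arrays. The detection limit was 10 units, which 3 of 369 negative spots exceeded. For each array the lowest value of a gene above the limit was found, and the highest of these, 3.39, was set as the floor. On each array 120 or 121 of the 321 metabolic genes were at this floor. The control arrays of days 4 to 8 had 228 to 235 genes above the limit and the chickpea arrays 201 to 209. The floor thus also took in genes above the limit, at least on those control arrays.

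Genes above the limit on at least 2 arrays were fitted with limma 3.58.1 in R 4.3.3 (lmFit and eBayes, day as a block, 2 residual degrees of freedom), two-sided, with Benjamini-Hochberg adjustment over all tested genes. The median residual SD was 0.26. The eBayes step weighted each gene's own variance by 2 degrees of freedom and the variance shared over all tested genes by 2.99. Precision is limited by the number of arrays. The scripts were tested on simulated data. The comparison, the 21 gene lists and the named genes were chosen with earlier results of these data known. The naming rule takes the 12 largest increases and 12 largest decreases past the test with the same sign on 3 of 3 days, and 30 fixed names, 29 of them present. For the change from day 2 it takes up to 6 in each direction, and list members past the test may be named. Of the genes this rule picks, 1 is not reported here. Promoter sequences were matched by symbol to RefSeq (167 of 226 tested genes). Alternatives covered scaling, filter, floor, variance prior, day block and the days included.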

Additional observations from a re-analysis of the deposited data

Results flagged for a closer look

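These 6 genes are listed because the chickpea difference on days 4 to 8 differed from that on day 2 in a limma test of the difference itself. The log2 shifts were -5.58 for Gpd1, -4.40 for Cd36, -4.07 for Retn, -3.21 for Hsd11b1, -3.15 for Hp and -2.77 for Fabp4. Cd36, Hsd11b1 and Fabp4 were above the floor on all 8 arrays, and their day 2 differences were above 0, at 4.20, 1.29 and 0.38.

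The scanner file also held 3 wells whose values matched no sample and which carry no label in the sources used here. In wells 2 and 3 of these, 234 and 240 of 334 spots were above the limit of 10 units, with medians of 165.5 and 125.0 units. In well 1 it was 0 of 334. They entered no comparison.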

How the results depend on the processing

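For the 49 named genes, 533 of 650 alternative values kept direction and side of the threshold, 84 lost the call, 13 gained it and 20 changed sign, and the causes were not tested. The count of 70 calls was 67 to 86 under other scalings, filters, floors, priors and without the day block, 41 on days 2 to 8, and 12 to 96 when a day was left out, where fewer arrays were fitted. The 6 genes that differed from day 2 became 3 with median scaling, 2 with 75th percentile scaling, 2 with control gene scaling, 103 on the deposited values (median of all genes -1.68), 3 among genes above the limit on every array, and 0 to 0 when a day was left out.

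Signs changed with control gene scaling for Stxbp2 (-0.12), Cebpb (-0.33), Acaca (-0.71), Gata2 (-0.34), Insr (-0.20), Irs1 (-0.90), Trib3 (-0.77) and Ccl2 (-0.47). On the deposited values they changed for Stxbp2 (-0.0090), Cebpb (-0.22), Acaca (-0.60), Insr (-0.093), Irs1 (-0.79), Trib3 (-0.67) and Ccl2 (-0.36), and with 75th percentile scaling for Irs1 (-0.034). With days left out in turn, Rxra ranged from -0.75 to 0.22, Acaca from -0.021 to 0.20 and Trib3 from -0.74 to 1.24, each changing sign without day 4. On days 2 to 8 Cd36 changed sign (0.90). Of these genes, Stxbp2, Cebpb and Insr passed the test with quantile scaling. Signal near background limits genes at the floor, some of which were above the detection limit on control arrays. Their differences are bounds or not exact. No paired analysis by replicate number was possible because the labels number no replicates, and day was the block.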
